A study of Homo sapiens with 21 samples.

Results

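The binding sites recovered with an antibody to all Argonaute proteins were set against those recovered with an antibody to AGO2 alone in HK-2, a human line immortalised from epithelial cells of the kidney's proximal tubule. Both lists come from PAR-CLIP, in which RNA carrying 4-thiouridine is crosslinked to a bound protein by ultraviolet light, the protein is immunoprecipitated, and the reads of its RNA fragments are grouped into short intervals called clusters. Every cluster of either list was a member: 19306 all-Argonaute clusters and 56985 AGO2 clusters, 76291 of the 113103 clusters in the 3 lists of the series. The AGO2 cells had 0.1% ethanol, the vehicle, for 24 h, and their 2 libraries were pooled by the authors into 1 list. The all-Argonaute list comes from 1 sample whose treatment is not given in the labels. Cells of both kinds had 100 µM 4-thiouridine and light of 365 nm at 0.15 J/cm2. The third list, AGO2 clusters after 5 µg/mL cyclosporine A for 24 h (36812 clusters, 2 libraries), served as a second AGO2 reference. The antibody, the number of pooled libraries and possibly the treatment differ together between the lists, so their parts in a difference cannot be told apart. Neither list gives values per library, so shares carry 95% Wilson intervals that cover counting error only, and no test between antibodies was possible.

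Argonaute proteins hold a microRNA (miRNA) and use its bases 2 to 8, the seed, to pair with mRNAs, most often in the 3' untranslated region (3' UTR), which shortens the life of the mRNA or lowers its translation. Humans have AGO1, AGO2, AGO3 and AGO4; AGO2 is the classic slicing member, and an antibody to the whole family recovers AGO2 as well. An Argonaute crosslinks to the miRNA it carries as well as to the target, so a PAR-CLIP list can hold clusters at miRNA genes and at mRNA sites.

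Some AGO2 clusters at miRNA genes spell a mature miRNA, and 5 of them are printed beside it to show the match. Mature sequences are RefSeq's (table of build GRCh38.p14), with the seed in capitals; cluster sequences are the deposited ones, in lower case throughout, read on the cluster's strand at hg19 positions.
miR-21-5p: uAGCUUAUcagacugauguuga
AGO2 cluster at MIR21, chr17:57918635-57918660, plus strand: agcttatcagactgatgttgactgtt
let-7b-5p: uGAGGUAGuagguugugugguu
AGO2 cluster at MIRLET7B, chr22:46509571-46509593, plus strand: tgaggtagtaggttgtgtggttt
miR-93-5p: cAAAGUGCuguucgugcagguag
AGO2 cluster at MIR25, chr7:99691438-99691460, minus strand: caaagtgctgttcgtgcaggtag
miR-27a-3p: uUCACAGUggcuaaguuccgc
AGO2 cluster at MIR24-2, chr19:13947262-13947281, minus strand: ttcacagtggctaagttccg
miR-10a-5p: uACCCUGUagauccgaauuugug
AGO2 cluster at MIR10A, chr17:46657267-46657288, minus strand: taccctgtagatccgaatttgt
The MIR25 cluster spells the whole of miR-93, which is processed from a neighbouring hairpin of the same cluster of miRNA genes.

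Clusters that hold a mature miRNA were looked for in the AGO2 list. Of the AGO2 clusters annotated to a miRNA gene, 20 held a stretch of at least 15 bases of a mature miRNA, and 0 of these 20 overlapped an all-Argonaute cluster, which allows a share of up to 15% (3 of 20). The share among all AGO2 clusters was 14.9%, so 20 clusters are too few to set the miRNA genes apart from the list as a whole. No all-Argonaute cluster lay within 1000 bases of any of them on the same strand. The sequences of the all-Argonaute list could not be searched for miRNAs, for a reason given under the processing, so the comparison rests on overlap of positions, and whether an all-Argonaute cluster covers a mature miRNA was not tested.

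The MIR21 cluster had the highest score of the 20, 2370, rank 1026 of 56985. The score is the authors' peak score, its unit is not given in the sources used here, and it is used only to rank clusters within a list. miR-21 was also the most abundant miRNA of the vehicle miRNA libraries, at 607193, 547150, 587905 and 602126 CPM (counts scaled to 1000000 a library), a mean of 586094 ± 27216 (SD, n = 4). The MIRLET7B cluster followed with a score of 940 (rank 2335), and let-7b stood at 1617, 1904, 1661 and 1319 CPM. The MIR25 cluster scored 218 (rank 7809), with miR-93 at 2034 ± 341 CPM, and the MIR24-2 cluster scored 155 (rank 10026), with miR-27a at 2140 ± 211 CPM. The order of scores was not the order of abundance: miR-10a stood at 18896 ± 720 CPM, and its cluster, with a score of 23, was at the 20.2 percentile of the list. Likewise the miR-222 cluster at MIR221 (score 21, percentile 15.2) belonged to a miRNA at 8661 ± 739 CPM. Of the remaining clusters, those at MIR4521 and MIR4647 held stretches of miR-5100 and miR-4647, which were at 0.311 and 0.0317 CPM in the miRNA libraries, and the first stretch was 16 of 22 bases. The MIR30A cluster runs past its mature miRNA at both ends. Whether the reads of these clusters came from mature miRNAs, hairpins or other RNA was not tested.

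**Figure D1:**
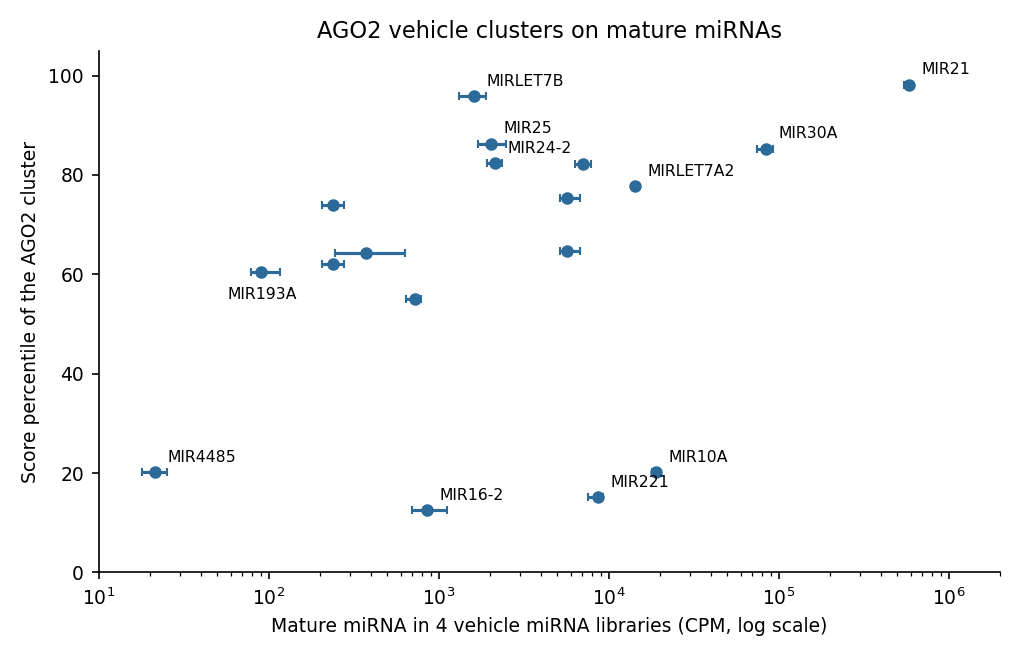
Score percentile within the AGO2 vehicle list (vertical axis) against the mean level of the mature miRNA in 4 vehicle miRNA libraries (horizontal axis, CPM, log scale) for AGO2 clusters that hold a mature miRNA at 1 CPM or more; bars span the lowest to the highest library. MIR21 is at the upper right, MIR10A, MIR221, MIR16-2 and MIR4485 (miR-4485-3p, 21.4 CPM) lie at or under the 20.2 percentile, and 0 of the clusters overlapped an all-Argonaute cluster.

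All-Argonaute clusters were also annotated to miRNA genes, 90 of them, but at other positions. Of these, 30 (33.3%, 24.5 to 43.6%) overlapped an AGO2 cluster. From the other side, 29 of the 318 AGO2 clusters so annotated were shared (9.12%, 6.42 to 12.8%). Over the whole lists the shares were higher, 44.2% and 14.9%. Among the 90 are clusters in introns of miRNA host genes, such as MIR924HG and MIR217HG. The highest was a 326-base cluster at MIR6087 (chrX:108297349-108297674, score 46550, rank 22), followed by a 106-base cluster at the same gene with a score of 11669; both overlapped AGO2 clusters, and the AGO2 cluster there carried a ribosomal RNA stretch. Next came clusters annotated to MIR1268A (5893), MIR663B (1912) and MIR7641-2 (773), each of them shared. Intervals of 50 bases or more are longer than a mature miRNA, and MIR6087, MIR663B and MIR7641-2 all had one.

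Of the all-Argonaute clusters, 8535 of 19306 overlapped an AGO2 vehicle cluster by 1 base or more on the same strand, 44.2% (43.5 to 44.9%). From the other side, 8513 of 56985 AGO2 clusters were shared, 14.9% (14.6 to 15.2%). On the opposite strand 20 all-Argonaute clusters (0.104%) met an AGO2 cluster, which is the background of such overlaps measured in the same lists. Clusters that overlapped did so almost exactly: in the 8542 overlapping pairs the centres lay a median of 0.5 bases apart, 5' ends lay within 2 bases in 84.8% of pairs, and 21.6% of pairs had both ends identical. Clusters that did not overlap were seldom near: 3.08% (2.77 to 3.43%) of the remaining 10771 all-Argonaute clusters had an AGO2 cluster within 1000 bases on the same strand, and 2.48% (2.20 to 2.79%) on the opposite strand.

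Shared clusters were also those that recurred in the second AGO2 list. Of the AGO2 vehicle clusters shared with the all-Argonaute list, 75.2% (74.3 to 76.1%) were in the AGO2 cyclosporine A list too, against 23.4% (23.0 to 23.8%) of the other AGO2 vehicle clusters. Seen from the all-Argonaute list, 6424 clusters (33.3%) were in both AGO2 lists, 2111 (10.9%) in the vehicle list alone, 827 (4.28%) in the cyclosporine A list alone and 9944 (51.5%, 50.8 to 52.2%) in neither. So 51.5% of the all-Argonaute clusters had no counterpart in either AGO2 list. The vehicle list has more clusters than the cyclosporine A list, so the difference between 2111 and 827 cannot be assigned to treatment.

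Overlap rose with score in both lists. In the lowest 10% of the all-Argonaute list by score (7 to 19), 22.2% (20.4 to 24.1%) of clusters were shared, and in the highest 10% (240 to 296778) 85.1% (83.4 to 86.6%). The AGO2 list ran from 4.60% (4.08 to 5.17%) in its lowest 10% to 46.4% (45.1 to 47.7%) in its highest. Among the 100 highest clusters, 90 of the all-Argonaute list and 81 of the AGO2 list were shared. Longer clusters were shared more often too: 152 of 159 all-Argonaute clusters of 50 bases or more (95.6%) and 34.4% of those under 20 bases. Length and score moved together, since the median score was 3415 in the longest class and 36 in the shortest, and their parts were not separated.

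**Figure D2:**
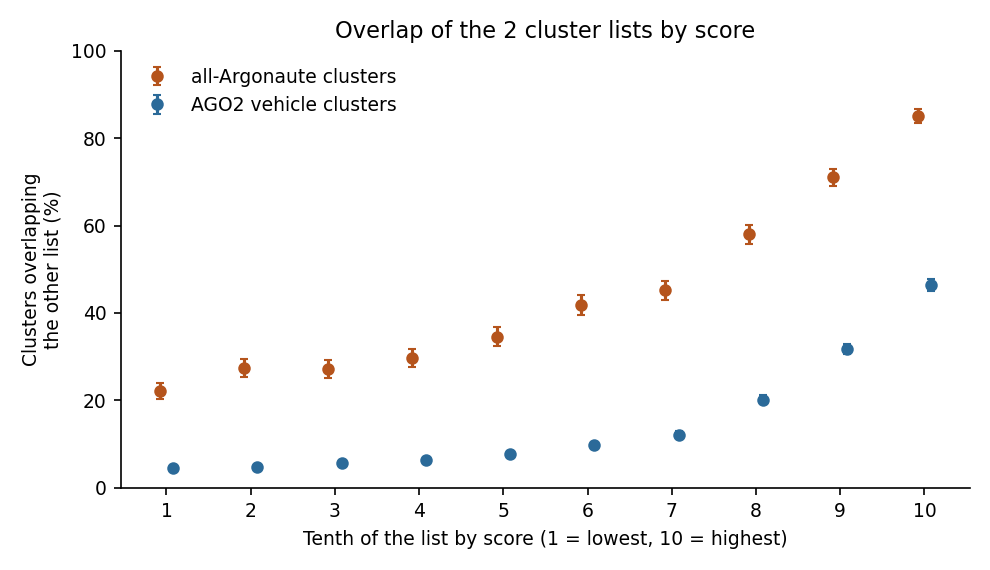
Share of clusters that overlap the other list (vertical axis, percent) for each list cut into 10 equal bins by the authors' score (horizontal axis, 1 lowest, 10 highest); bars are 95% Wilson intervals. The all-Argonaute share goes from 22.2% to 85.1% and the AGO2 share from 4.60% to 46.4%.

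Ranks of shared clusters went together across the lists. Spearman's rho between the scores of the 8542 pairs was 0.58, a description over pairs that share the read mapping, their length and the cluster caller. It was 0.55 over the 7996 pairs in which both clusters were under 30 bases, and by class it ranged from 0.38 over 57 non-coding pairs to 0.68 over 108 pairs at transcript ends. Of the pairs whose all-Argonaute cluster was in the upper 10% of its list, 81.8% had an AGO2 cluster in the upper 10% of the other list and 1.58% had one in the lower 50% by score. Over all pairs, 31.3% had their AGO2 cluster in the upper 10% of its list. From the other side, 50.4% of pairs with an AGO2 cluster in the upper 10% had an all-Argonaute cluster in the upper 10%, against 19.3% of all pairs. The upper 10% held 1649 pairs by all-Argonaute score and 2677 by AGO2 score, so the shares of the 2 sides have different denominators.

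**Figure D3:**
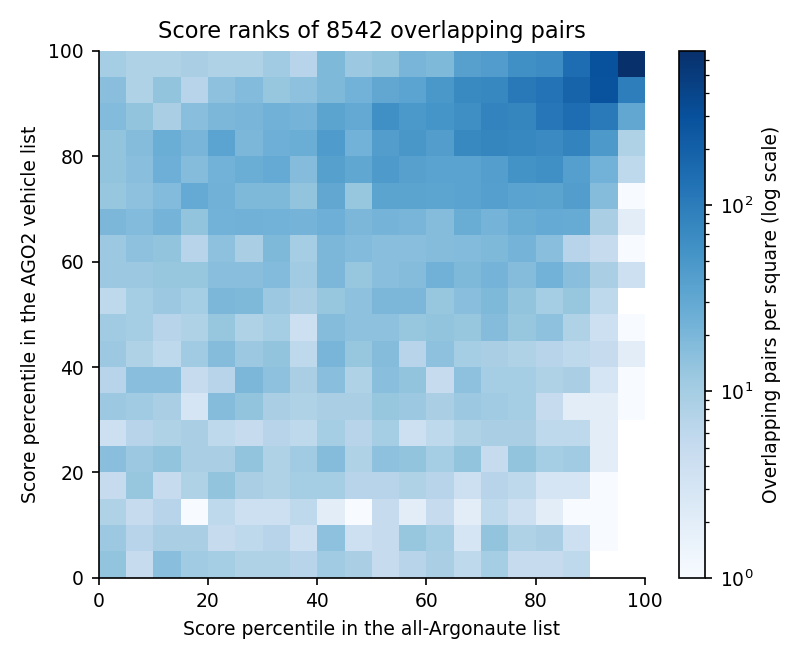
Score percentile in the all-Argonaute list (horizontal axis) and in the AGO2 vehicle list (vertical axis) of the 8542 overlapping pairs, counted in squares of 5 by 5 percentiles with a log colour scale. Pairs are densest where both percentiles are highest, and rho over all pairs is 0.58.

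The highest ranks of both lists held several of the same places, many of them marked as ribosomal RNA (rRNA). The first cluster of each list lay in an intron of HFM1, a helicase of meiosis, at chr1:91852779-91853148 (all-Argonaute score 296778) and chr1:91852779-91853149 (AGO2 score 1066380), and is annotated as an rRNA repeat. An intergenic cluster on chromosome 21 was second in both lists, 573 and 588 bases long. Introns of PDE3A, UNC45B and DLG2 were in the first 10 of both lists. Of the 10 highest AGO2 clusters, 7 were marked as rRNA by annotation or by a shared stretch of 20 bases, and of the highest 100, 55 were. In the all-Argonaute list 50 clusters carried the rRNA annotation, 47 of them shared, and they held 12.9% of the summed score. The 77 clusters so annotated in the AGO2 list held 14.0%, and 39 of them were shared. Transfer RNA was annotated at 9 all-Argonaute clusters (0.0466% of the list), 9 of which were shared. In the AGO2 list it was 64 clusters (0.112%), 9 of which were shared. That is 14.1%, near the 14.9% of all AGO2 clusters. Of the rRNA-marked AGO2 clusters 127 of 225 were shared (56.4%), and outside them 14.8% of AGO2 clusters were. By count, rRNA-marked clusters were 127 of the 8513 shared AGO2 clusters, 1.49% (1.26 to 1.77%), and 0.202% of the unshared ones. An AGO2 cluster under 20 bases can be marked by annotation alone, and rRNA unlike the annotated clusters is missed. The 1.49% is therefore the marked part only, and how much more of the overlap is rRNA was not settled.

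Some high clusters had no counterpart in the other list. The highest unshared all-Argonaute cluster lay between genes at chr5:2323275-2323297 (score 236787, rank 6). It was followed by clusters in an intron of MAD1L1, a spindle checkpoint protein (28974, rank 35), and in an exon of COL4A5, a basement membrane collagen (19796, rank 54). A cluster at the promoter of CANX, the chaperone calnexin, had a score of 9260 and rank 82. In the AGO2 list the highest unshared clusters lay between genes at chr5:180102044-180102065 (300019, rank 10) and in introns of MACROD2 (166770, rank 22) and LGALS2 (136021, rank 29). Of the all-Argonaute ones named here, the MAD1L1 cluster was in the cyclosporine A list.

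The lists had nearly the same make-up by annotation class. Clusters between genes made up 47.2% of the all-Argonaute list and 46.9% of the AGO2 list, and introns 42.8% and 42.4%. Exons held 3.39% (3.14 to 3.65%) and 3.69% (3.54 to 3.85%), and 5' UTRs 0.373% and 0.433%. The 3' UTR, the usual place of miRNA sites, held 196 all-Argonaute clusters, 1.02% (0.883 to 1.17%), and 748 AGO2 clusters, 1.31% (1.22 to 1.41%); these intervals do not meet. The classes are the authors' annotation, in which promoter-TSS and TTS mean the surroundings of a transcript's start and end.

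Within the lists, overlap was somewhat lower near and in mature transcripts. Of the all-Argonaute clusters between genes 45.5% (44.5 to 46.6%) were shared and of those in introns 44.3% (43.3 to 45.4%), against 36.1% (32.5 to 39.8%) in exons and 35.2% (31.5 to 39.1%) at promoters. In 3' UTRs 82 of 196 were shared, 41.8% (35.2 to 48.8%), an interval that includes the 44.2% of the whole list. In the AGO2 list 15.5% (15.1 to 15.9%) were shared between genes, 15.1% (14.7 to 15.6%) in introns, 11.2% (9.95 to 12.6%) in exons, 11.3% (9.90 to 12.8%) at promoters and 82 of 748, 11.0% (8.92 to 13.4%), in 3' UTRs. The intervals of exons, promoters and 3' UTRs overlap in the AGO2 list, and so do those of the all-Argonaute list. In the AGO2 list, then, 3' UTR sites were shared less often than sites between genes or in introns. In the all-Argonaute list the 3' UTR interval also includes the 45.5% of sites between genes, so 3' UTR sites are not set apart there.

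**Figure D4:**
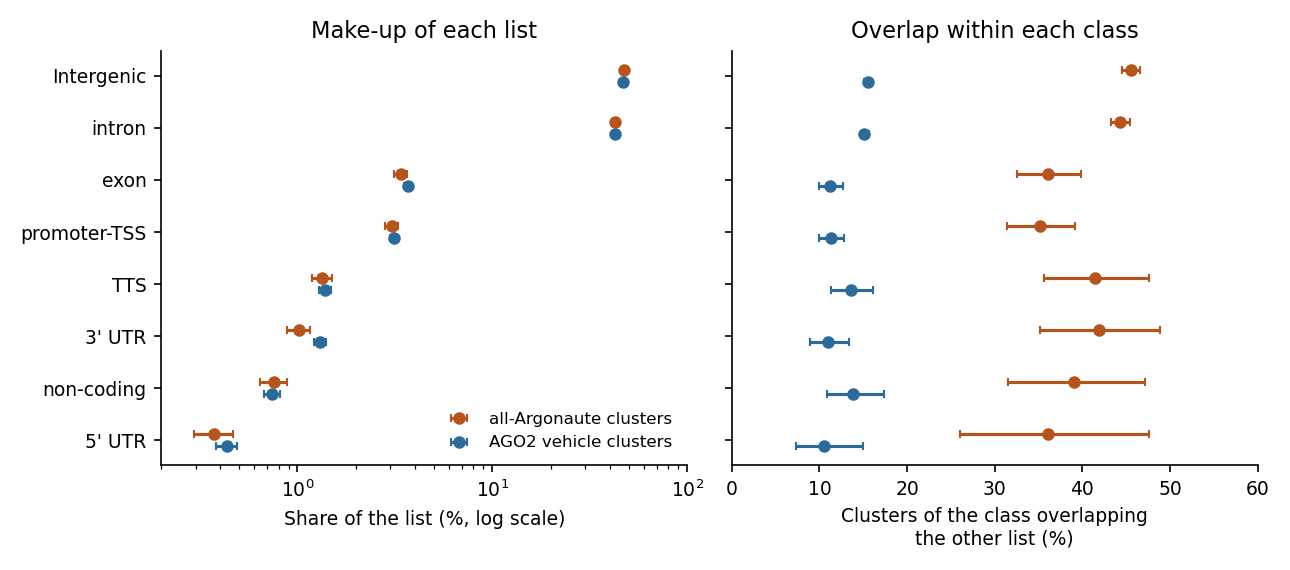
Left, share of each list by annotation class (percent, log scale); right, share of each class that overlaps the other list (percent); bars are 95% Wilson intervals. The make-up of the lists nearly coincides, with 3' UTRs at 1.02% and 1.31%, and overlap runs from 35.2% to 45.5% in the all-Argonaute list and from 10.5% to 15.5% in the AGO2 list.

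Among shared 3' UTR sites the highest all-Argonaute score was at ADRB1, the beta-1 adrenergic receptor: 5054 (rank 132) at chr10:115805665-115805686, paired with an AGO2 cluster of score 11271 (rank 192). Next were DDAH1, which degrades asymmetric dimethylarginine (2130, AGO2 score 1991), CANT1, a nucleotidase (1257, AGO2 330), and SLC25A36, a mitochondrial nucleotide carrier (920, AGO2 2285). KRIT1, an endothelial junction protein, had 629 against an AGO2 score of 2537. DPY19L4 stood apart, with 387 in the all-Argonaute list and an AGO2 score of 25, rank 42355. Of the 10 highest genes of this set, 9 were in the cyclosporine A list, 8 had a mean of 10 or more mRNA counts, and 4 of the 7 with a known strand had the cluster on the strand of the gene. The KRIT1 cluster lay on the opposite strand, and those at ADRB1, DDAH1 and SLC25A36 on the strand of the gene.

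All-Argonaute 3' UTR clusters without an AGO2 partner were led by ECT2, an exchange factor of cytokinesis (2289, rank 250, chr3:172538901-172538923). CMBL, a hydrolase, followed (1312, rank 423), then ELF3, an epithelial transcription factor (330, rank 1443), and KLC2, a kinesin light chain (216, rank 2107). TACC3, a spindle protein, was seventh with a score of 174. Of the 10 highest of these genes, 2 were in the cyclosporine A list, 4 of 8 with a known strand were on the strand of the gene, and 8 had a mean of 10 or more mRNA counts. The ELF3 cluster lay on the opposite strand, and those at ECT2 and TACC3 on the strand of the gene. These sites are the all-Argonaute sites in 3' UTRs that AGO2 pull-down in vehicle did not list, and they rest on 1 sample.

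AGO2 3' UTR clusters without an all-Argonaute partner were led by GUCY1A2, a guanylate cyclase subunit (6275, rank 343), ZYG11A (5845, rank 371), HLCS, which attaches biotin to carboxylases (4545, rank 510), and SMURF2, a ubiquitin ligase of TGF-beta signalling (3395, rank 698). INHBA, an activin subunit, was the eighth with 793. Of the 10 highest, 7 were in the cyclosporine A list and 4 of 8 were on the strand of the gene. The GUCY1A2 and HLCS clusters lay on the opposite strand, and those at ZYG11A, SMURF2 and INHBA on the strand of the gene. The 3' UTR clusters of each gene were counted as well. SCD, the desaturase that makes oleic acid, had 4 AGO2 clusters in its 3' UTR (between 102121423 and 102123568 on chromosome 10), all 4 on the strand of the gene, with scores of 24 to 51, and 0 all-Argonaute clusters of any class. Its mRNA was at 5018, 4893, 4703 and 4480 CPM. In the cyclosporine A list 0 of the 4 recurred. Few AGO2 clusters of such scores were shared at all, from 5.79% to 9.69% in the 10% bins that hold scores of 24 to 51. Among the 11864 AGO2 genes, 6859 had no all-Argonaute cluster in any genic class, so SCD is not set apart by its lack of one. No other gene had more than 2 AGO2 clusters in the 3' UTR. CDCA5, a cohesin regulator, had 2, both on its strand, 1 of them shared, and in the all-Argonaute list ADARB2 and MTCL2 alone had 2.

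The strand of the cluster relative to its gene separated the lists more than the class did. An mRNA is copied from 1 strand of its gene, so a cluster on the opposite strand is not part of that mRNA. Strand was taken from RefSeq and was known for 77.4% of all-Argonaute and 77.0% of AGO2 clusters with a gene. In exons and UTRs together, 406 of 753 all-Argonaute clusters were on the strand of the gene, 53.9% (50.3 to 57.4%), and 1610 of 2526 AGO2 clusters, 63.7% (61.8 to 65.6%). The excess in the AGO2 list was in the clusters it did not share: 65.0% (63.0 to 66.9%) of 2239 unshared clusters, against 54.0% (48.2 to 59.7%) of 287 shared ones, a difference of 11.0 percentage points (4.96 to 17.1). Unshared all-Argonaute clusters stood at 53.8% (49.2 to 58.2%), 11.2 points (6.31 to 16.2) under the unshared AGO2 clusters.

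By class, unshared AGO2 clusters in 5' UTRs were on the strand of the gene in 146 of 185 cases, 78.9% (72.5 to 84.2%), and shared ones in 11 of 21. In 3' UTRs the shares were 64.7% (60.6 to 68.7%) of 539 unshared and 52.3% (40.4 to 64.0%) of 65 shared AGO2 clusters, and 61.1% (50.8 to 70.5%) of 90 unshared all-Argonaute clusters. The unshared 3' UTR clusters of the lists differed by 3.64 points, with an interval of -6.64 to 14.7. In introns all groups were between 53.1% and 55.3%. AGO2 clusters in exons and UTRs that were in neither other list reached 67.1% (64.9 to 69.1%), and those missing from the all-Argonaute list but present in the cyclosporine A list stood at 53.1% (47.8 to 58.4%). By score, the AGO2 exon and UTR clusters in the upper 10% of the list stood at 46.5% (39.2 to 54.0%) and those at or under the median score at 61.7% (59.0 to 64.4%). Both lie under the 63.7% of all AGO2 exon and UTR clusters, so those with scores in between stood higher than either. The share did not fall steadily with score. AGO2 exon and UTR sites that recurred in another list, or that scored highest, were thus close to an even split between strands, and those in neither other list were more often on the strand of the mRNA. The letters of AGO2 promoter clusters were in the 300-base RefSeq promoter of the same gene in 43 of 150 shared cases (28.7%, 22.0 to 36.4%). Among unshared ones it was 329 of 1113 (29.6%, 27.0 to 32.3%). A cluster outside this window cannot match, so the shares do not tell how often clusters carry the letters of their place. Whether the reads came from the place where a cluster lies was not tested.

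**Figure D5:**
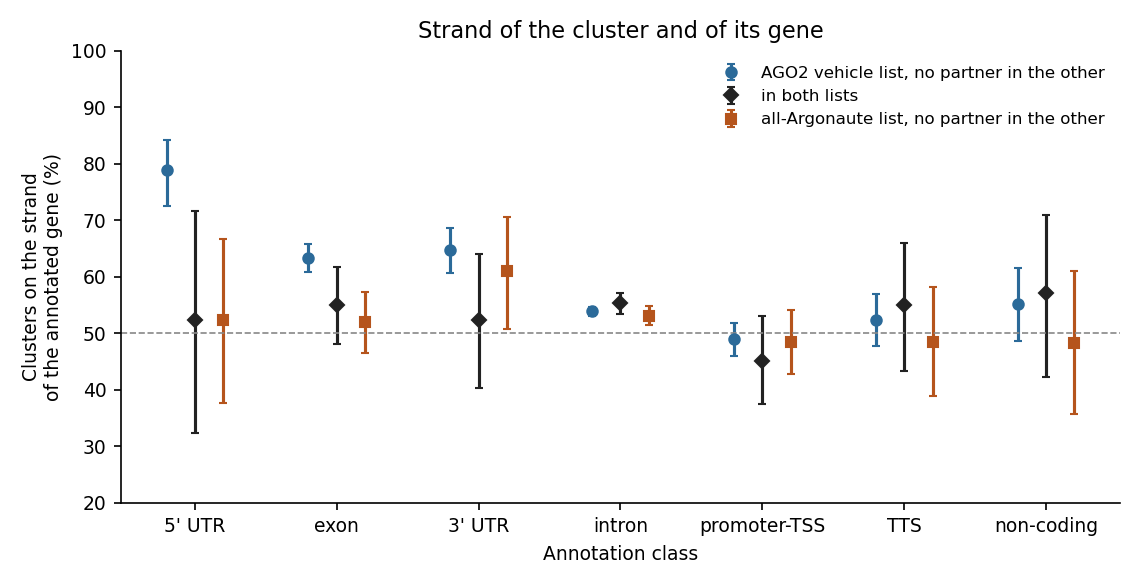
Share of clusters on the strand of their annotated gene (vertical axis, percent) by class, for AGO2 clusters without an all-Argonaute partner (blue circles), all-Argonaute clusters with an AGO2 partner (black diamonds) and all-Argonaute clusters without one (orange squares); bars are 95% Wilson intervals and the dashed line marks 50%. AGO2 clusters without an all-Argonaute partner lie highest in 5' UTRs (78.9%), exons (63.4%) and 3' UTRs (64.7%), and all groups lie near the line in introns.

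Detection of the mRNAs of the genes under these clusters was compared by strand too. Of the genes with an unshared AGO2 exon or UTR cluster on their own strand, 1044 of 1243 (84.0%, 81.8 to 85.9%) had a mean of 10 or more counts in the 4 vehicle mRNA libraries, and 520 of 730 (71.2%, 67.8 to 74.4%) of those with one on the opposite strand. For unshared all-Argonaute clusters the shares were 77.5% (71.8 to 82.3%) of 240 and 78.5% (72.4 to 83.5%) of 209, with no such gap. For shared clusters they were 78.7% (71.4 to 84.5%) of 150 and 64.3% (55.8 to 72.1%) of 129. A lower share on the opposite strand was thus not particular to unshared AGO2 clusters, though the intervals of the shared ones meet. Over all genes measured, 56.4% were detected. In these bulk libraries fewer cells of a type and less RNA per cell cannot be told apart.

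The lists were also compared by gene. Of the 6121 genes with an all-Argonaute cluster in any genic class, 5005 (81.8%, 80.8 to 82.7%) also had an AGO2 cluster, and these were 42.2% (41.3 to 43.1%) of the 11864 AGO2 genes. As a background, 44.8% of all genes in the mRNA table had an AGO2 cluster of any class and 23.4% an all-Argonaute one. In exons and UTRs the genes in both lists were 436 of 877 (49.7%) and of 2626 (16.6%). The matching backgrounds were 11.1% of all genes with an AGO2 cluster there and 3.68% with an all-Argonaute one. In 3' UTRs the genes in both lists were 92 of 194 (47.4%) and of 708 (13.0%), with backgrounds of 2.99% and 0.816%. The genes with most all-Argonaute clusters were FHIT and RBFOX1 with 16 each, ANKRD30BL and MAGI2 with 15 each, and AUTS2 with 14. The AGO2 list was led by PTPRD (45 clusters, 13 all-Argonaute), RBFOX1 (44), CSMD1 (43) and EYS (39). FHIT, RBFOX1, MAGI2, PTPRD and CSMD1 are known as very long genes; gene length was not measured, and its part in the counts was not tested. RBFOX1 and CSMD1 had 0 mRNA counts in every vehicle library and PTPRD a mean of 440.2 counts. Of these genes' all-Argonaute clusters, ANKRD30BL shared 14 of 15, FHIT 13 of 16, RBFOX1 6 of 16, AUTS2 6 of 14 and MAGI2 3 of 15.

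The genes of the silencing machinery were counted against all genes. Over all 23280 genes of the mRNA table, 23.4% had an all-Argonaute cluster of any class and 44.8% an AGO2 cluster; 12.4% had a shared one; 3.68% and 11.1% had one in an exon or UTR, and 0.816% and 2.99% one in a 3' UTR. An all-Argonaute cluster in an exon or UTR was found at 0 of 4 Argonaute genes, 0 of 22 silencing partners and 1 of 16 biogenesis genes, numbers too small to set apart from the 3.68% of all genes. Of the 4 Argonaute genes 3 had all-Argonaute clusters, each in an intron: AGO1 (scores 59 and 23, opposite strand), AGO2 (860, shared) and AGO3 (324, own strand, shared). Of 22 silencing partners 9 had an all-Argonaute and 14 an AGO2 cluster. PAN2, a deadenylase subunit, led with an intronic cluster of score 1446 that was not shared; TNRC6B, a GW182 scaffold, had 4 intronic clusters, 2 of them shared, and DDX6, a decapping activator, had a shared promoter cluster (score 46, AGO2 score 25). TNRC6A had an unshared intronic all-Argonaute cluster, while its AGO2 clusters in an exon (score 48) and in the 3' UTR (45) were on its own strand and unshared. Of 16 biogenesis genes, 3 (TUT7, PRKRA and DROSHA) had all-Argonaute clusters and 10 had AGO2 clusters; the exon cluster was at DROSHA, the nuclear processing enzyme, with a score of 20, on its strand and unshared. DROSHA also had an AGO2 cluster of score 196 on its strand in the 3' UTR that was not shared.

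Genes known as targets of miRNAs abundant in epithelium were counted the same way. Over all genes of the mRNA table, 23.4% had an all-Argonaute cluster and 44.8% an AGO2 cluster. All-Argonaute clusters of any class were at 16 of 27 miR-21 targets, 9 of 26 let-7 targets, 7 of 21 miR-17 targets, 10 of 22 miR-29 targets, 4 of 19 miR-30 targets and 7 of 15 miR-200 targets; AGO2 clusters were at 23, 18, 18, 17, 12 and 12 of them. Most were intronic, for example in GALNT7 (miR-30 list, score 1660, shared), ARHGAP24 (miR-21 list, 994, shared), PTPN13 (miR-200 list, 606, shared) and CDK6 (miR-29 list, 205, shared). E2F1, a cell cycle transcription factor and miR-17 target, had a shared exon cluster on its own strand, at chr20:32267764-32267784, with scores of 1063 and 3129. The 13 lists together held 4 all-Argonaute clusters in 3' UTRs, at KRIT1 (629), GATAD2B (84), CDC25A (53) and DYRK2 (26). All 4 were shared, and those at KRIT1, GATAD2B and CDC25A lay on the strand opposite to the gene; the strand of DYRK2 was not in the table. The AGO2 list held 26 clusters in 3' UTRs of listed genes.

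AGO2 sites in exons of several of these genes had no all-Argonaute counterpart, which held for 1866 of all 2102 AGO2 exon clusters. Of the 11864 AGO2 genes, 6859 had no all-Argonaute cluster in any genic class. TPM1, a tropomyosin and miR-21 target, had 3 AGO2 exon clusters on its own strand with scores of 39 to 111 and 0 all-Argonaute clusters. COL1A1, the collagen chain in the miR-29 list, had 6 AGO2 exon clusters, all on the minus strand, with scores of 20 to 233, and 0 all-Argonaute clusters. Of the long non-coding RNAs, 2 of 30 had an all-Argonaute cluster (KCNQ1OT1 and CYTOR, neither shared) and 14 of 30 an AGO2 cluster. NEAT1, the scaffold of paraspeckles, had 8 AGO2 clusters, 6 of them annotated non-coding and on the plus strand, and NORAD, a decoy of Pumilio proteins, had 3 on its own strand; neither had an all-Argonaute cluster. Ribosomal protein genes had all-Argonaute clusters in 5 of 76 cases and AGO2 clusters in 22, and replication-dependent histone genes in 1 and 7 of 23. In the calcineurin and NFAT list it was 9 and 14 of 18, led by intronic clusters of GSK3B, an NFAT kinase (992, opposite strand, shared), and of NFATC1 (138, own strand, shared). The background of these counts is 23.4% of all genes of the mRNA table with an all-Argonaute cluster and 44.8% with an AGO2 cluster. Lists of short and of long genes differ in the room they give to intronic clusters.

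Of the 3' UTR clusters in the AGO2 list that hold a seed site, 4 are printed to show the match of a guide and a site, on the cluster's strand and with the letters that pair with the seed in capitals.
CDKN1B, miR-222 site, chr12:12874151-12874174, plus strand: aaaagcgttggATGTAGCattatg
SFXN1, miR-30a site, chr5:174954756-174954784, plus strand: aaaccatgtaccacTGTTTACatcatctg
DUSP5, miR-21 site, chr10:112270637-112270659, plus strand: ttcggggcATAAGCTgatcaccg
STK24, miR-222 site, chr13:99103872-99103889, minus strand: ggggATGTAGCtcagcta
CDKN1B, the cell cycle inhibitor p27, is a well known target of miR-221 and miR-222, which share a seed. Its cluster had a score of 23 (percentile 20.2) on the strand of the gene, and it was in neither other list. The SFXN1 cluster, in a mitochondrial serine transporter, had a score of 68 (percentile 65.6), and that in DUSP5, a phosphatase of ERK, 45 (percentile 51.0); neither was shared. The STK24 cluster, in a kinase gene, had the highest score of the 4, 779 (percentile 95.2), and was in all 3 lists. Whether its reads came from this 3' UTR or from another RNA with the same letters was not tested. Pairing of a miRNA at any of the 4 sites was not tested either.

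Over the AGO2 list, sites for the 10 most abundant seed families were sparse inside and outside the overlap. The sites, read on the cluster's strand only, were ATAAGCT (miR-21 family), TGTTTAC (miR-30a), CTACCTC (let-7i), TACTTGA (miR-26a), ACAGGGT (miR-10a), ATGTAGC (miR-222), GTGCAAT (miR-92a), ATGAAGG (miR-205), CAGTATT (miR-200b) and TGAATGT (miR-181a). Any of these was held by 151 of 8513 shared clusters, 1.77% (1.51 to 2.08%), and 698 of 48472 unshared ones, 1.44% (1.34 to 1.55%), a difference of 0.334 points (0.0520 to 0.653). Shared clusters are longer (mean 23.6 against 20.7 bases), and per 1000 bases the values were 0.751 and 0.694. In 3' UTRs it was 1 of 82 (1.22%) against 11 of 666 (1.65%), a difference of -0.432 points (-2.06 to 4.99) that is not told from none at this number. The miR-205 site was the most frequent of the 10, in 256 AGO2 clusters, 6 of them in 3' UTRs. It was in 0.529% of shared and 0.435% of unshared clusters. Single families went either way: the miR-21 site was in 0.294% of shared and 0.113% of unshared clusters, and the miR-10a site in 0.0705% and 0.124%. Base composition was close, with GC at 48.2% in shared and 48.8% in unshared clusters.

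The mRNAs of all 4 Argonautes were present in the vehicle libraries. AGO1 (EIF2C1 in the table) stood at 28.7, 29.8, 25.8 and 29.6 CPM, and AGO2 (EIF2C2) at 18.9, 17.7, 18.5 and 18.7. AGO3 (EIF2C3) stood at 11.4, 8.20, 12.9 and 12.8 and AGO4 (EIF2C4) at 20.4, 24.0, 19.2 and 18.4. As mean ± SD (n = 4) these were 28.5 ± 1.83, 18.4 ± 0.514, 11.3 ± 2.20 and 20.5 ± 2.49 CPM. The labels do not say whether libraries came from separate cultures, so the SD may be technical. CPM is not scaled by transcript length, so the genes are not ranked, and protein was not measured.

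Vehicle mRNA libraries held 4289120 to 7041604 counts and vehicle miRNA libraries 6664231 to 7888220; the number of reads behind each PAR-CLIP list is unknown. All 6 epithelial markers had a mean of 10 or more counts, and 10 of 20 proximal tubule markers did; PAX2, HNF4A, LRP2, SLC22A6 and SLC22A8 were under 1. Fibroblast markers reached 10 counts in 3 of 6 cases (COL1A2 and COL3A1 were under 1), endothelial markers in 0 of 5 and leukocyte markers in 1 of 5.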

How the data were processed

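Cluster lists, mRNA counts and miRNA counts of HK-2 cells were taken as deposited. The authors deposited raw counts per gene and per miRNA as whole numbers, and for each cluster a position, strand, annotation, sequence and score. The score's unit and the calling program were not given in the sources used here. Build hg19 and, with no roles, DESeq2, HTSeq, TopHat, Bowtie, cutadapt and CASAVA 1.8.2 are named in the submitters' processing notes. Whether mRNA counting used strand is not given either. In the all-Argonaute list the deposited width equals the interval in 2692 of 19306 clusters, so its widths and sequences were not used. Its annotation is in register: 8538 of 8542 overlapping pairs have the same class and 8540 the same gene.

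Clusters were shared when they overlapped by 1 base or more on chromosome and strand. Positions are 1-based. Shares have 95% Wilson intervals and differences Newcombe intervals. CPM is the count scaled to a library total of 1000000. Gene symbols were joined through RefSeq names, and gene strand comes from the RefSeq promoter table (GRCh38.p14, names and strand only). Of 1406 miRNAs with vehicle counts 1259 had a RefSeq sequence, so family totals cover those. The overlap code was tested on simulated data, where 2000 of 2000 planted overlaps were found among 5500 clusters. Python 3.11.15, pandas 2.3.3, scipy 1.17.1 and edgeR 4.0.16 (TMM scaling alone) were used.

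Alternatives were overlap of at least 50% of the shorter cluster, the upper 50% by score, no repeats, structural RNA or mitochondrial clusters, merged clusters (no cluster of a list overlapped another), seed sites of positions 2 to 7, the 5 most abundant families, TMM-scaled CPM and leaving out each mRNA library. Named genes are the 10 highest 3' UTR genes of each set, the genes with most 3' UTR clusters, the 5 highest clusters of each class, up to 5 members of each gene list by all-Argonaute rank, and the Argonaute genes; other list members, the highest unshared clusters, the genes with most clusters and the printed sites were chosen after their values were seen. Members and lists were chosen with earlier results of these data known.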

Additional observations from a re-analysis of the deposited data

Results flagged for a closer look

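The level of miR-193a-5p, whose mature sequence lies in the AGO2 cluster at MIR193A, had 1 library far from the other 3 vehicle miRNA libraries. Library 1 stood at 117.01 CPM and libraries 2 to 4 at 80.3, 83.8 and 78.3 CPM. Chance sets apart about 1 in 20 groups of 4 by this rule, and 35 groups were examined. The level bears on no comparison of the lists, since the cluster (score 58, percentile 60.4) is in the AGO2 list alone.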

How the results depend on the processing

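The overlap depended on how far down the lists clusters were taken. With the upper 50% of each list by score, 52.8% of all-Argonaute and 17.8% of AGO2 clusters overlapped, against 44.2% and 14.9% with every cluster; 78.7% of all-Argonaute genes and 35.9% of AGO2 genes were shared, against 81.8% and 42.2%. The other 42 alternatives, listed under the processing, left their result within its 95% interval or within 1 SD; they covered the same shares, the 3' UTR shares, the rank correlation, the seed-site difference and the Argonaute mRNA levels. Leaving out each vehicle mRNA library in turn gave 28.0 to 29.4 CPM for AGO1, 18.3 to 18.7 for AGO2, 10.8 to 12.4 for AGO3 and 19.3 to 21.2 for AGO4. No paired analysis was possible because each antibody has 1 list and no result comes from a test. The read number behind the lists is unknown, so a site missing from the shorter list may lie under its detection limit; that was not tested.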
